A study of Mus musculus with 2 samples.

Results

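The 40 genes described here mark 2 stretches of the cell division cycle and were followed across the cell types of injured and uninjured mouse tissue around the Achilles tendon. They were chosen by name, as textbook genes of the phases, and make up 40 of the 32285 genes in the count matrices. Of these, 20 are G1/S genes, used to license and copy DNA, and 20 are G2/M genes, used to condense, align and part the chromosomes. The first library, called injured here, came from Vegfd-OE mice that were Hoxa11 wt/CreERT2 at the Hoxa11 locus and R26 wt/LSL-rtTA at the R26 locus and carried TetO-Vegfd, from the limb with burn/tenotomy, at day 7 after tenotomy. The library set against it, called uninjured, came from the contralateral tendon of mice of the same genotype that also had burn/tenotomy elsewhere. Mice were male and female, 8 to 12 weeks old at injury, with 5 per group in the design text; the labels do not say whether several mice were pooled. Both libraries therefore share the transgene, whose Cre is driven from the Hoxa11 locus, and libraries of control mice were not analysed here. In mesenchymal-like cells Vegfd stood at 196 CPM in the injured library (95% Poisson interval 194 to 199), and at 64.7 CPM in the uninjured one (61.8 to 67.8), where CPM is UMIs of a gene over all UMIs of the cells, summed and scaled to 1000000.

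A cell that divides first loads the MCM helicase onto its replication origins, then makes nucleotides and fires the origins as E2F factors release the G1/S genes. Later the DREAM and B-MYB complexes, acting through CHR elements, and NF-Y, which binds CCAAT boxes, govern the G2/M genes, whose products build the spindle and trigger sister separation. In injured tendon, fibroblast, endothelial, Schwann and muscle stem cells are known to enter division, while neutrophils are end-stage cells that do not. VEGF-D acts on VEGFR3 (Flt4) of endothelial cells and is known for growth of lymphatic vessels.

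The 2 phases differ in their promoters as well, so a few are shown. RefSeq promoters (250 bases before to 50 after the start, build GRCm38.p6) were found for 17 of 20 G1/S and 17 of 20 G2/M members, the first listed promoter being used. Both strands were searched for the E2F letters TTTCGCGC, TTTGGCGC and TTCCCGCC, for the CHR letters TTTGAA and TTCGAA, and for CCAAT. An E2F match lay in 8 of 17 G1/S promoters (47.1%) and 1 of 17 G2/M promoters (5.88%), against 3.03% of the promoters of all 27025 genes. A CHR match lay in 2 of 17 G1/S promoters (11.8%) and 13 of 17 G2/M promoters (76.5%), against 19.4% of all. CCAAT lay in 11 of 17 (64.7%) and 15 of 17 (88.2%), against 37.9% of all. CHR and CCAAT together lay in 2 G1/S promoters and 13 G2/M promoters, against 7.70% of all. A match is a description of letters, not a site. The promoters of Mcm6 and Mcm5 (helicase subunits) are shown for E2F letters, that of Ccnb2 (a mitotic cyclin) for CHR and CCAAT letters, and that of Cdk1 (the mitotic kinase) as the only G2/M member with E2F letters as well. Capitals mark matches of any of the 3 kinds. In 1 member promoter matches of different kinds overlapped.
Mcm6 (GRCm38.p6, chr1:128359656-128359955, minus strand): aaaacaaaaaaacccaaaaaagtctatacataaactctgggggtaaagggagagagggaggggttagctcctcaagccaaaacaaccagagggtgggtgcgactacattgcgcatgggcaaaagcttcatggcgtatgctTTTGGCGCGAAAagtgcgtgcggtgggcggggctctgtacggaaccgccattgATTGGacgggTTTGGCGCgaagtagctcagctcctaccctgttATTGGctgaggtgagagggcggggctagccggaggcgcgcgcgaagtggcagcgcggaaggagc
Mcm5 (GRCm38.p6, chr8:75109259-75109558, plus strand): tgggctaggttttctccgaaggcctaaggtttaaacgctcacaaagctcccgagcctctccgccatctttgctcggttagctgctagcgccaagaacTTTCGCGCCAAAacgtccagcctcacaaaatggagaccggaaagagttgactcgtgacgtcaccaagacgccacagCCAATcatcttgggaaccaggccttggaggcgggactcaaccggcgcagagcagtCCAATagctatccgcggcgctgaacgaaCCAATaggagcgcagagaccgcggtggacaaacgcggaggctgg
Ccnb2 (GRCm38.p6, chr9:70421505-70421804, minus strand): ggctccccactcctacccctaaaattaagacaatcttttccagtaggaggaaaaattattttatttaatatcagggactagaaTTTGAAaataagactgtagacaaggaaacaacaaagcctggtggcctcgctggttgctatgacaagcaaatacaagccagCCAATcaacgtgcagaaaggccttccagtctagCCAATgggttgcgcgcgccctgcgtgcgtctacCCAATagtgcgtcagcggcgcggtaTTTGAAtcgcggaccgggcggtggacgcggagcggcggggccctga
Cdk1 (GRCm38.p6, chr10:69352863-69353162, minus strand): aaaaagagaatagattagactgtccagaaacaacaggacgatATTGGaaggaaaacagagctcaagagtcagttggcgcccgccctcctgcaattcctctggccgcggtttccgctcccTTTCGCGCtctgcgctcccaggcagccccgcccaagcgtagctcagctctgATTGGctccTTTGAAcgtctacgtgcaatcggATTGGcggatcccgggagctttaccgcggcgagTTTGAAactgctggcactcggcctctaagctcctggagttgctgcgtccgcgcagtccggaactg
Mcm6 held 3 E2F matches and 2 CCAAT, Mcm5 2 E2F matches and 3 CCAAT, Ccnb2 2 CHR and 3 CCAAT, and Cdk1 1 E2F match, 2 CHR and 3 CCAAT. The Mcm6 and Mcm5 windows held no CHR match.

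The injured library held 10691 barcodes and 253050820 UMIs, of which 9151 cells were kept, and the uninjured library held 6850 barcodes and 101685524 UMIs, of which 4700 were kept. The 2 libraries shared 19 barcodes, 8 of them among cells kept. Each cell was thinned to 5000 UMIs, which left out 1612 injured and 551 uninjured cells that were shallower, and a cell was called positive for a phase when UMIs of 3 or more different members of that phase were seen. Cells were grouped by clusters made without cell cycle genes and named from marker genes, so "-like" is written after a class name. Each group has 1 library, so no test is possible; intervals are exact 95% intervals, cover counting error only, and cells are not replicates. Neutrophil-like cells, which should not divide, were set beside the other classes for the injured library only (the uninjured library held 3), with 2 of 224 injured cells G1/S positive (0.893%, 0.108 to 3.19%) and 7 of 224 G2/M positive (3.12%, 1.27 to 6.33%). Their median depth was 3947 UMIs over all 970 cells and 7081 over the 224, against 22310 over all injured and 17383 over all uninjured cells at depth, and 746 of them were too shallow to thin. With Hmgb2, Pcna, Slbp and Ung left out, genes also used outside division, 0 of 224 neutrophil-like cells were G1/S positive. This allows a share of up to 1.34% (the limit for a count of 0, here and below, being 3 cells of the total). With the same genes left out, 1 of the 224 was G2/M positive (0.446%). Kif23 stayed in the reduced list, though it was at 50.7 CPM in neutrophil-like cells.

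Over all cells, 18 of 20 G1/S members and 20 of 20 G2/M members had a ratio above 1, injured over uninjured. G1/S positive cells made up 16.9% of 7539 injured cells (16.1 to 17.8%) and 11% of 4149 uninjured cells (10.1 to 12.0%). G2/M positive cells made up 11.5% (10.8 to 12.3%) of injured and 3.86% (3.29 to 4.49%) of uninjured cells. Without thinning the shares were 56.3% and 29.8% in injured cells and 48.7% and 9.98% in uninjured cells, for G1/S and G2/M in that order. Of the 40 members, 14 (4 of G1/S and 10 of G2/M) were more than 2-fold higher in the injured library, on CPM + 1, and 0 more than 2-fold lower, where 6.83% of the 15231 genes tested were higher and 7.85% lower. All 40 passed the filter of a mean of 1 CPM, here and in each class below, and the added 1 CPM keeps some low genes with a ratio just over 2 out of the count. The median log2 fold was 0.67 for G1/S and 1.00 for G2/M members, against -0.04 over all genes tested. As the plot of shares by class shows, these values join classes with very different shares.

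**Figure D1:**
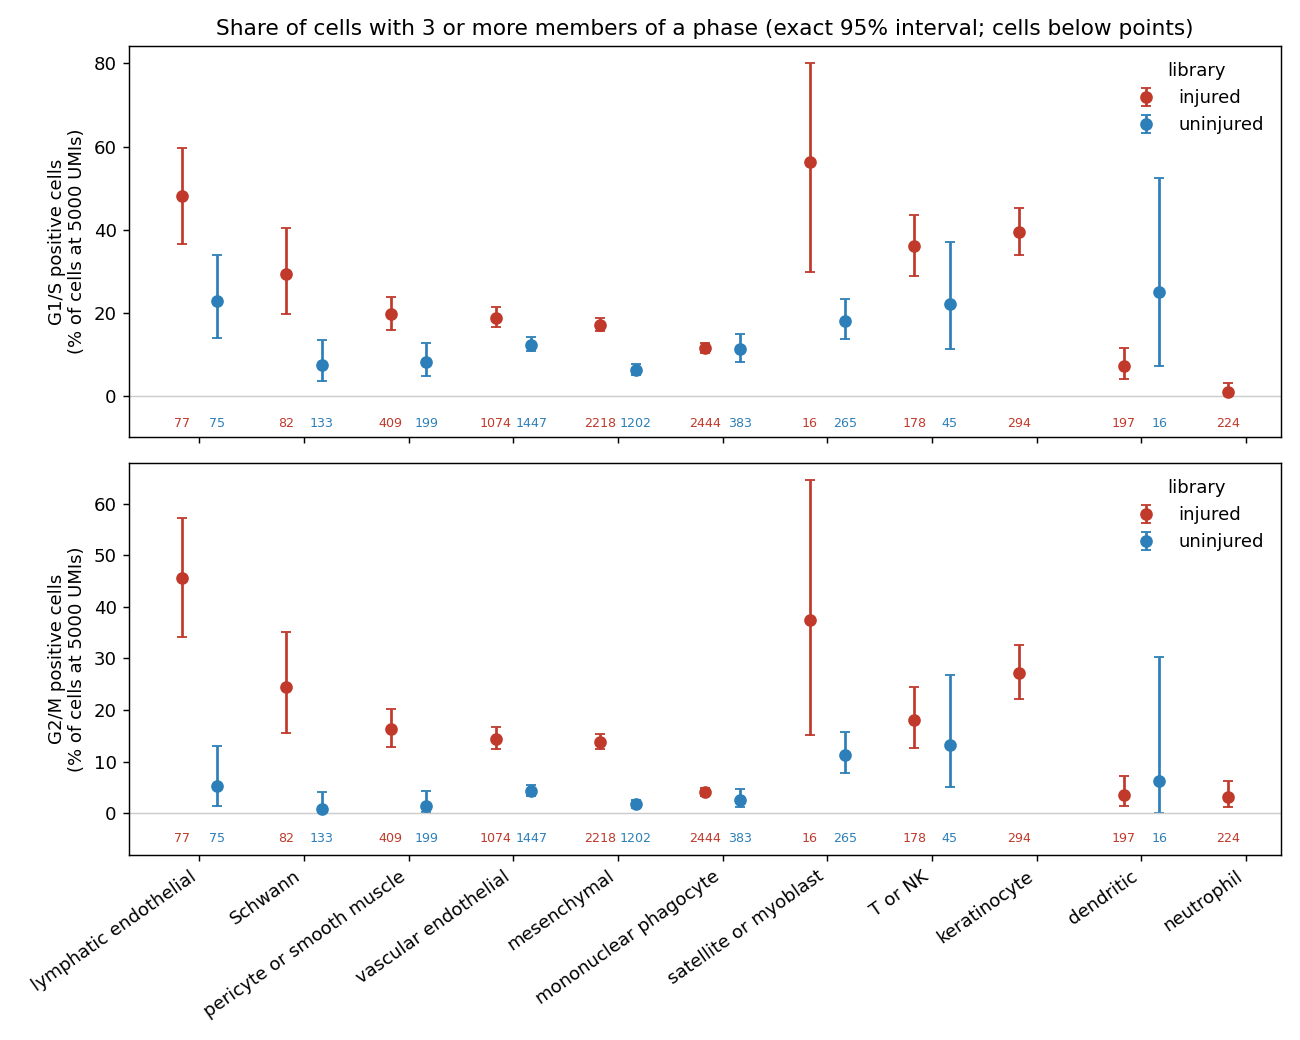
Share of cells at 5000 UMIs (y axis, %) with 3 or more G1/S members (top) or G2/M members (bottom) by cell class, injured in red left of uninjured in blue, with exact 95% intervals and cell numbers under the points. Lymphatic endothelial-like cells stand at 45.5% G2/M positive in the injured and 5.33% in the uninjured library, and mononuclear phagocyte-like cells at 4.05% and 2.61%.

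The helicase subunits are the G1/S members that act first. Mcm2 stood at 11.7 CPM in injured and 6.84 CPM in uninjured cells. Mcm5 stood at 12.6 CPM in injured and 7.62 CPM in uninjured cells. These 2 subunits had the largest ratios of the 6, at 1.71 (1.56 to 1.86) and 1.66 (1.53 to 1.81). Mcm3 had 24.2 CPM in injured against 17.7 CPM in uninjured cells, and Mcm4 had 22.5 against 16.1 CPM. Mcm6 had 27.6 CPM in injured against 22.8 CPM in uninjured cells, and Mcm7 had 27.4 against 20.1 CPM. All 6 subunits were therefore higher, each by less than 2-fold. Cdc6 and Cdt1 load the helicase. Cdc6 was at 4.78 CPM in injured and 4.25 CPM in uninjured cells, and Cdt1 at 11.2 and 7.02 CPM. Gins2, a subunit of the active helicase, was at 16 CPM in injured and 6.32 CPM in uninjured cells, 2.53-fold (2.31 to 2.77). Dtl, which directs the breakdown of Cdt1 in S phase, was at 11.6 CPM in injured and 4.79 CPM in uninjured cells.

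The nucleotide enzymes differed among themselves. Rrm2, the S-phase subunit of ribonucleotide reductase, was at 27.7 CPM in injured and 11.9 CPM in uninjured cells, 2.33-fold (2.18 to 2.49). Its partner Rrm1 was at 37.8 CPM in injured and 26.2 CPM in uninjured cells, 1.44-fold (1.38 to 1.51). Tyms, thymidylate synthase, was at 41.0 and 24.6 CPM. Cyclin E starts S phase: Ccne1 was at 7.14 CPM in injured and 3.53 CPM in uninjured cells, and Ccne2 at 9.58 and 5.58 CPM. Hells, a chromatin remodeller, had the largest ratio of the G1/S members, 28.3 CPM in injured against 11.1 CPM in uninjured cells (2.54, 2.37 to 2.71). Uhrf1, which recruits the maintenance DNA methyltransferase, was at 14.6 and 6.88 CPM, and the repair glycosylase Ung at 5.91 and 2.74 CPM. The remaining pair went the other way. Pcna, the polymerase clamp, was at 74.7 CPM in injured and 86.2 CPM in uninjured cells, a ratio of 0.867 (0.844 to 0.891). Slbp, the histone mRNA binder, was at 51.4 and 55.0 CPM, a ratio of 0.935 (0.904 to 0.966).

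The mitotic kinase, its cyclins and its helpers were all higher. Ccnb1 (cyclin B1) had the largest ratio of the 40, 16.4 CPM in injured against 5.00 CPM in uninjured cells (3.28, 2.97 to 3.62). Ccnb2 was at 30.7 CPM in injured and 12.7 CPM in uninjured cells, and Cdk1 at 47.8 and 20.3 CPM. Ccna2 (cyclin A2) was at 20.8 CPM in injured and 10.9 CPM in uninjured cells. Birc5, a subunit of the chromosomal passenger complex with Aurkb, was at 52.4 CPM in injured and 17.2 CPM in uninjured cells, 3.05-fold (2.89 to 3.22). Aurkb itself was at 12.7 and 6.73 CPM. Aurka, the spindle pole kinase, was at 10.3 CPM in injured and 4.10 CPM in uninjured cells, and its activator Tpx2 at 35.4 and 17.4 CPM. Plk1, a kinase of mitotic entry and exit, was at 9.84 and 4.32 CPM. Of these 9 genes, 6 were past 2-fold on CPM + 1 and Ccna2, Aurkb and Tpx2 were not.

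Of the genes of chromosome parting, Cdc20 and Ube2c belong to the machinery of the anaphase-promoting complex. Cdc20 was at 23.0 CPM in injured and 10.8 CPM in uninjured cells, and Ube2c at 58.7 and 26.4 CPM. Bub1, a checkpoint kinase of the kinetochore, was at 9.73 and 4.13 CPM. The kinetochore motor Cenpe was at 26.7 CPM in injured and 11.7 CPM in uninjured cells, and Cenpf at 35.8 and 25.7 CPM. Kif11, the motor that parts the poles, was at 19.7 CPM in injured and 11.4 CPM in uninjured cells, and Nusap1, a microtubule binder, at 28.0 and 17.8 CPM. Kif23, a motor of cytokinesis, was at 19.7 CPM in injured and 15.8 CPM in uninjured cells, a ratio of 1.24 (1.17 to 1.32). Mki67, the coat protein of mitotic chromosomes, was at 50.1 and 33.4 CPM, and Top2a, which untangles DNA, at 84.5 and 52.1 CPM. Hmgb2, a chromatin protein, was at 295 CPM in injured and 185 CPM in uninjured cells, with 828 CPM in neutrophil-like cells.

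Lymphatic endothelial-like cells, which line lymph vessels, had the highest G2/M share of the 6 classes compared in the injured library. They formed 1 cluster (number 23: Ccl21a, Mmrn1, Lyve1, Reln), with 83 injured and 84 uninjured cells. G2/M positive cells were 35 of 77 injured cells (45.5%, 34.1 to 57.2%) and 4 of 75 uninjured cells (5.33%, 1.47 to 13.1%). G1/S positive cells were 37 of 77 (48.1%, 36.5 to 59.7%) and 17 of 75 (22.7%, 13.8 to 33.8%). Without thinning, 69.9% of injured and 15.5% of uninjured cells were G2/M positive, and 85.5% and 66.7% G1/S positive. A Mki67 UMI was seen in 27.3% of injured (17.7 to 38.6%) and 4.0% of uninjured lymphatic endothelial-like cells (0.833 to 11.2%), against 0.893% of neutrophil-like cells. These cells were 1.02% of the injured cells at depth and 4.03% of the G2/M positive ones, against 1.81% and 2.50% in the uninjured library.

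The label of this class was checked against its markers. Prox1, the lymphatic identity factor, was at 526 CPM in injured and 959 CPM in uninjured cells of the class, against 2.15 and 16.1 CPM in all other cells at depth. Flt4 was at 448 and 604 CPM in the class, against 6.12 and 20.3 CPM elsewhere. Within the injured class, G2/M positive cells had a lower summed level of the 7 lymphatic markers than the others, 4256 against 9019 CPM, and a higher depth, a median of 46080 against 25769 UMIs. Their summed fibroblast markers were 338 CPM against 476 CPM in the others, and their macrophage markers 394 against 255 CPM. Depth and doublet score moved with the result: the class median was 31996 UMIs in injured and 17920 in uninjured cells at depth, and the median doublet score was 0.0575 in its G2/M positive and 0.0400 in its other injured cells. Their part in the result was not tested.

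In this class 35 of 40 members were more than 2-fold higher in injured cells, 15 of 20 for G1/S and 20 of 20 for G2/M, where 13.1% of all genes were. The median log2 fold was 1.34 for G1/S and 2.61 for G2/M members, against -0.06 over all genes tested. Ccnb1 was at 72.8 CPM in injured and 7.12 CPM in uninjured cells, 10.2-fold (5.97 to 19.0). Birc5 was at 210.1 CPM in injured and 22.4 CPM in uninjured cells, 9.39-fold (6.92 to 13.1). Aurkb, its partner kinase, was at 47.6 and 5.59 CPM, 8.51-fold (4.62 to 17.4). The intervals of these 3 ratios overlap. Mki67 was at 170.2 CPM in injured and 33.6 CPM in uninjured cells. Among G1/S members Rrm2 was at 80.5 CPM in injured and 14.2 CPM in uninjured cells, 5.65-fold (3.82 to 8.68), and Gins2 at 46.6 and 8.65 CPM. Pcna was at 137 CPM in injured and 121 CPM in uninjured cells, a ratio of 1.13 (0.964 to 1.33). Mcm6, at 68.3 and 36.6 CPM, Mcm7, Ung and Slbp were the other members below 2-fold. The count is 22 of 40, against 18.8% of all genes, among cells that had Xist but no Y gene UMI. When classes were set cell by cell from the marker lists, the G2/M share was 31.9% in injured and 6.90% in uninjured cells.

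**Figure D2:**
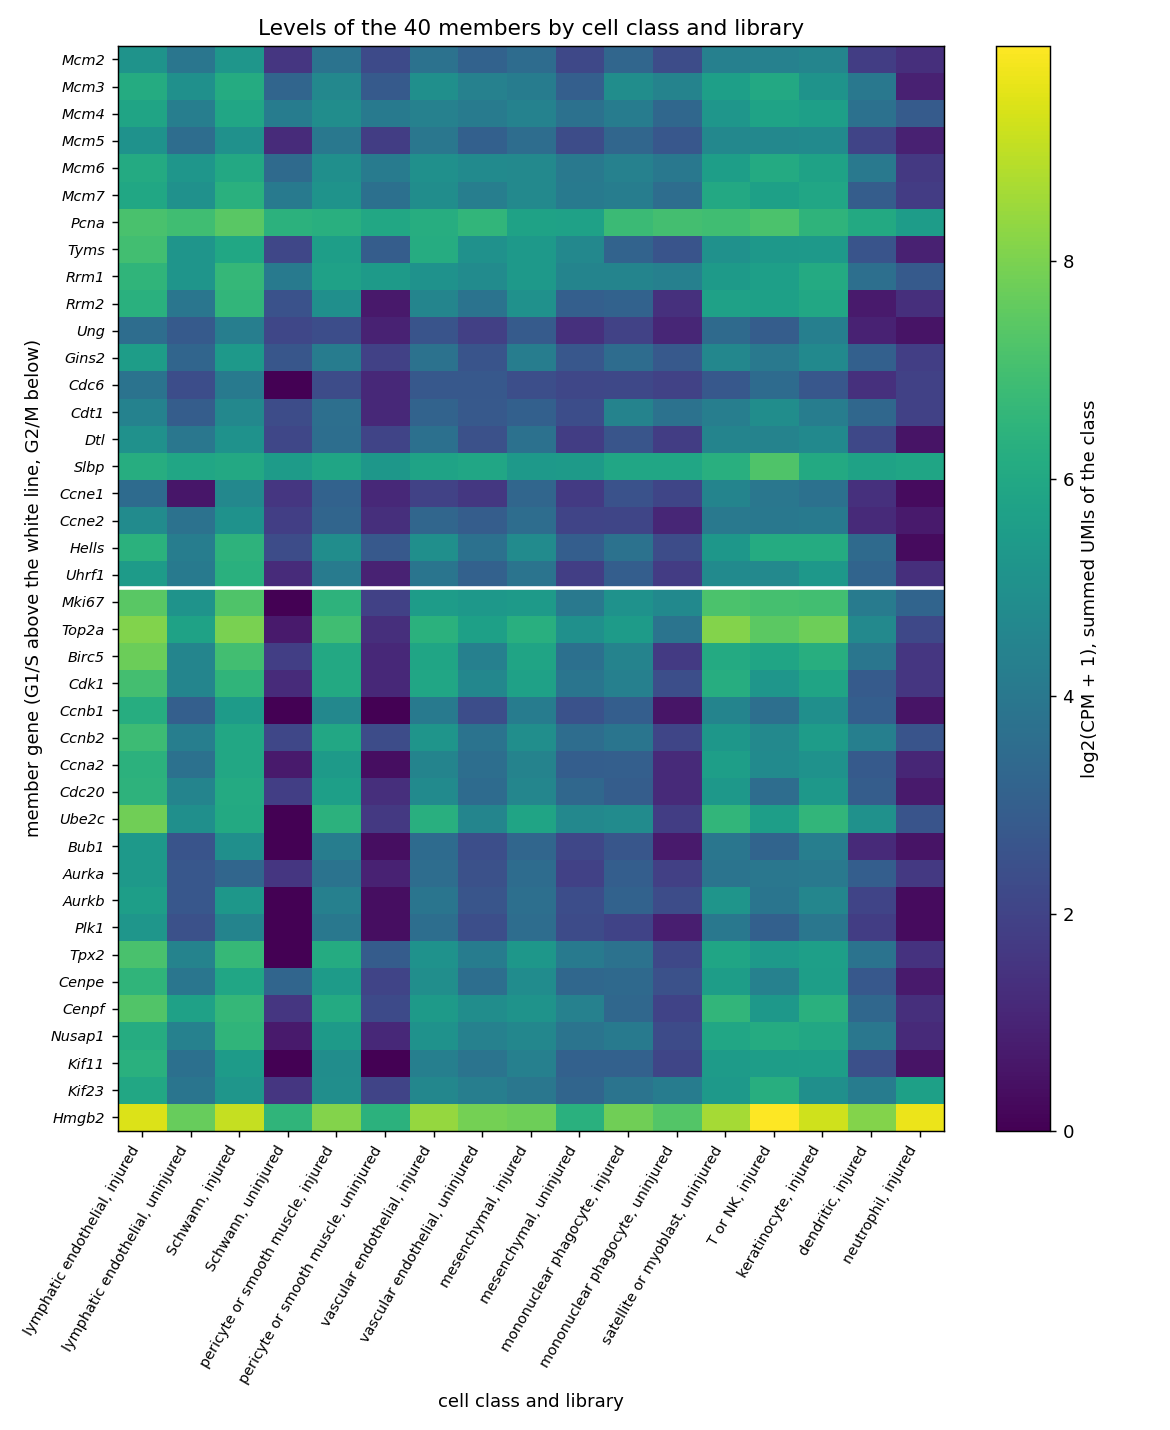
Level of each of the 40 members (rows, G1/S above the white line, G2/M below) as log2(CPM + 1) in 17 class-library sums of 50 or more cells (columns, injured left of uninjured). Bright blocks of G2/M members lie in injured lymphatic endothelial-like and Schwann-like cells and in uninjured satellite- or myoblast-like cells, and only Hmgb2, Kif23, Slbp and Pcna are above 40 CPM in neutrophil-like cells.

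Over the 17 class-library sums of at least 50 cells, 16 of 20 G2/M members had their highest level in injured lymphatic endothelial-like cells. The exceptions were Top2a (279 CPM in uninjured satellite- or myoblast-like cells, 275 CPM in injured lymphatic endothelial-like cells), Nusap1 (92.4 CPM in injured Schwann-like cells), Kif23 and Hmgb2 (76.0 and 1010.4 CPM in injured T or NK-like cells). For G1/S members the order was different, with 13 of 20 highest in injured Schwann-like cells, 4 in injured lymphatic endothelial-like cells, 2 in T or NK-like cells and 1 in keratinocyte-like cells. Neighbours in these orders often had near levels: Mcm3 was at 70.0 CPM in injured Schwann-like and 69.3 CPM in injured lymphatic endothelial-like cells.

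Schwann-like cells, the glia of peripheral nerve, had 1 G2/M positive cell in the uninjured library. G2/M positive cells were 20 of 82 injured cells (24.4%, 15.6 to 35.1%) and 1 of 133 uninjured cells (0.752%, 0.0190 to 4.12%). G1/S positive cells were 24 of 82 (29.3%, 19.7 to 40.4%) and 10 of 133 (7.52%, 3.66 to 13.4%). Without thinning, 31.3% of injured and 1.18% of uninjured cells were G2/M positive. Mki67 gave 290 UMIs in injured cells (151 CPM) and 0 in uninjured cells, at least 76.1-fold higher against a floor of 3 counts over the class. Tpx2 gave 193 and 0 UMIs, at least 50.7-fold, and Ube2c 127 and 0 UMIs, at least 33.3-fold. Ccnb1, Kif11, Aurkb, Bub1 and Plk1 were also at 0 UMIs in uninjured cells, with bounds between 10.8-fold and 22.0-fold. In all, 8 of 20 G2/M members and 1 of 20 G1/S members, Cdc6 with a bound of 8.14-fold, had no UMI in uninjured cells. Top2a gave 479 UMIs in injured and 1 in uninjured cells, a ratio of 377 with a counting interval of 67.4 to 14927.

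Counted over both phases, 39 of 40 members were more than 2-fold higher in injured Schwann-like cells, where 15.6% of all genes were. Slbp alone was not, at 64.7 CPM in injured and 43.8 CPM in uninjured cells. The median log2 fold was 2.93 for G1/S members and 5.18 for G2/M members, or 4.46 with the zeros at their bound, against 0.05 over all genes tested. Uhrf1 was at 80.4 CPM in injured and 1.33 CPM in uninjured cells, the widest G1/S ratio at 60.6 (16.5 to 505) on 154 and 2 UMIs. Hells was at 86.1 and 3.98 CPM, 21.7-fold (9.74 to 59.9). The class is held by different clusters in the 2 libraries. Cluster 25 (Mbp, Pmp22, Mal; myelin genes) held 29 injured and 120 uninjured cells, and cluster 27 (Csmd1, Nkain2, Tenm3, Slc35f1) held 70 and 49. Within cluster 27, 30.6% of 62 injured cells (19.6 to 43.7%) and 2.70% of 37 uninjured cells (0.0684 to 14.2%) were G2/M positive. Within cluster 25, 1 of 20 injured and 0 of 96 uninjured cells were. Sox10, the glial factor, was at 224 CPM in G2/M positive and 229.7 CPM in other injured Schwann-like cells. The Schwann-like difference is smaller when classes are set cell by cell, with 11.8% of injured and 1.63% of uninjured cells G2/M positive and 13.7% and 8.13% G1/S positive.

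Pericyte- or smooth muscle-like cells, which wrap small vessels, had 16.4% G2/M positive cells among 409 injured (12.9 to 20.3%) and 1.51% among 199 uninjured (0.312 to 4.34%). G1/S positive cells were 19.6% (15.8 to 23.7%) and 8.04% (4.67 to 12.7%). Without thinning the G2/M shares were 39.1% in injured and 3.69% in uninjured cells. In this class 35 of 40 members were again more than 2-fold higher, where 11.1% of all genes were, with median log2 folds of 1.70 for G1/S and 4.11 for G2/M, against 0.03 over all genes. Kif11 gave 293 UMIs in injured and 0 in uninjured cells, at least 31.1-fold, and Ccnb1 246 and 0, at least 26.1-fold. Mki67 was at 85.6 CPM in injured and 2.78 CPM in uninjured cells, 30.9-fold (16.2 to 67.7). In cluster 10 (Rgs5, Acta2) 17.5% of 354 injured (13.7 to 21.9%) and 2.67% of 75 uninjured cells (0.325 to 9.30%) were G2/M positive. In cluster 24 (Myh11, Tagln) 5 of 53 injured (9.43%, 3.13 to 20.7%) and 1 of 96 uninjured cells (1.04%, 0.0264 to 5.67%) were, with intervals that overlap. Rrm1 was the least different of the nucleotide genes, at 51.4 CPM in injured and 42.9 CPM in uninjured cells (1.20, 0.993 to 1.46), while its partner Rrm2 was at 30.5 and 0.617 CPM.

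**Figure D3:**
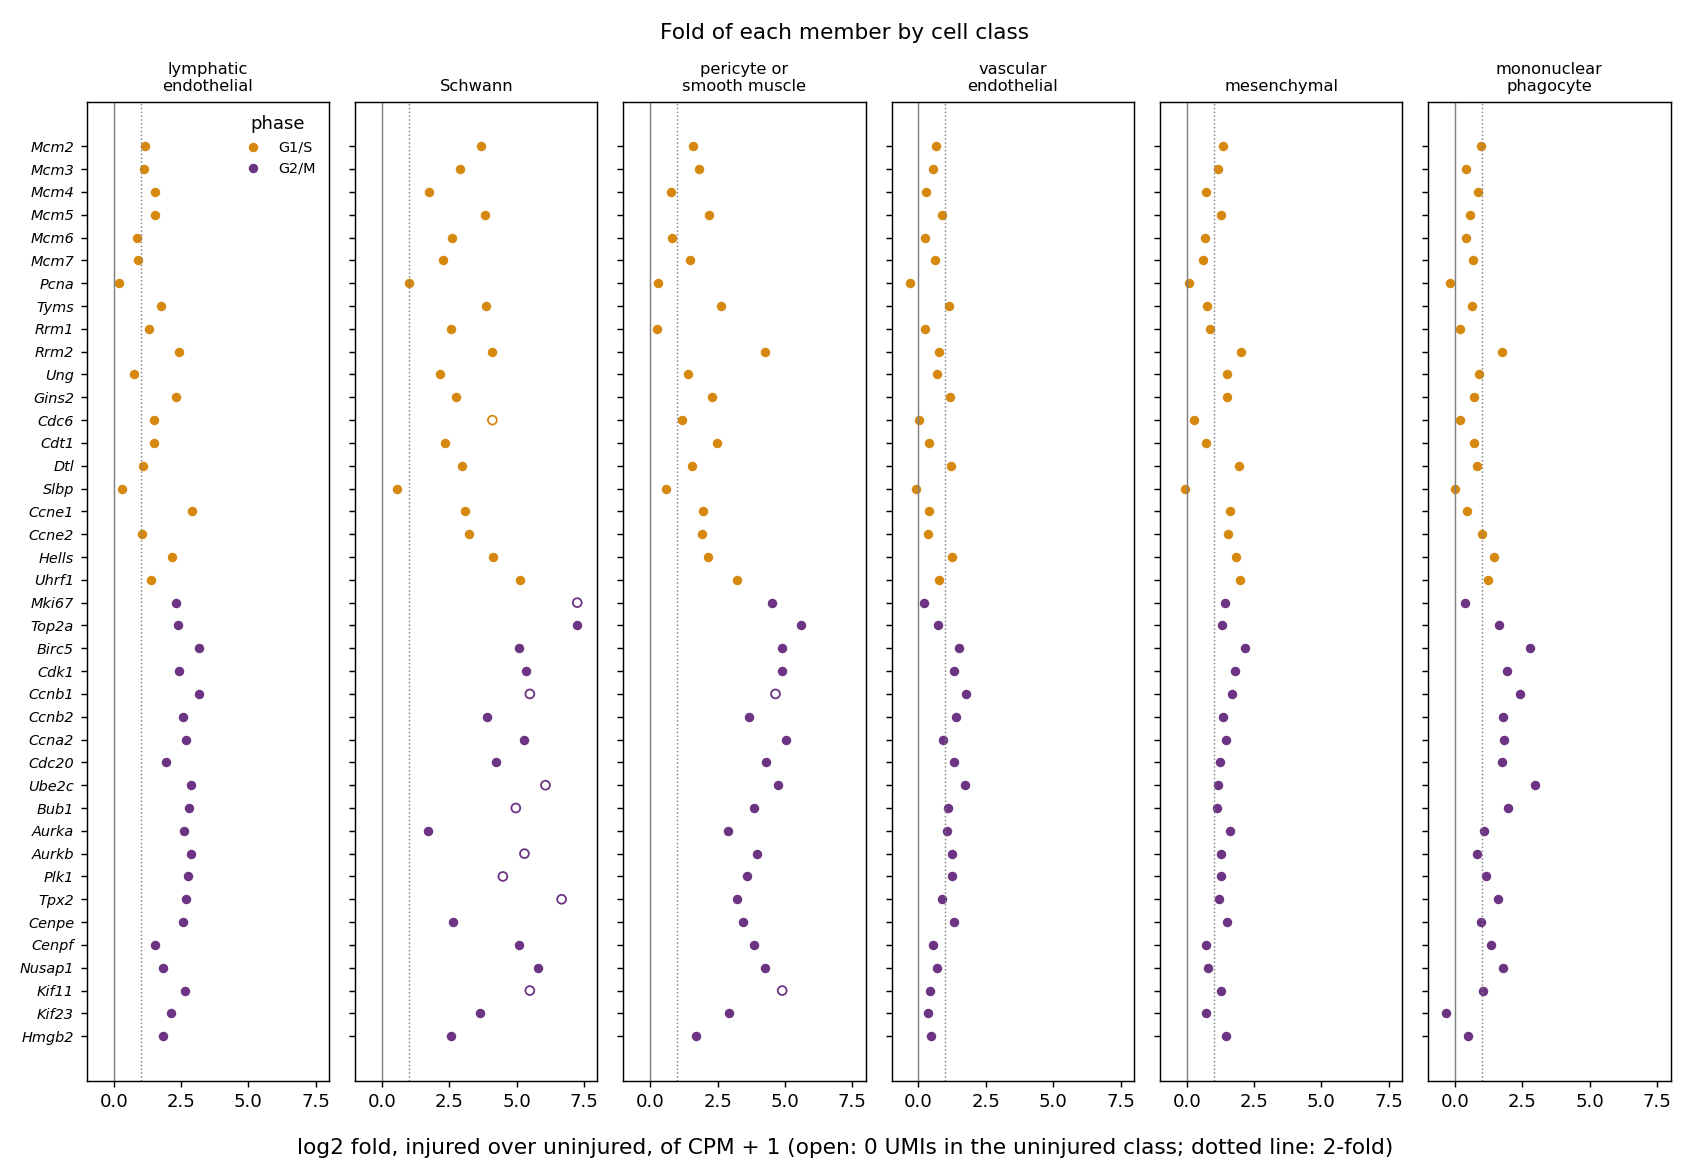
Log2 fold of CPM + 1, injured over uninjured (x axis), of each member (y axis) in the 6 classes compared, G1/S in orange and G2/M in purple. Open points had 0 UMIs in the uninjured class, where the plotted fold depends on the pseudocount, and the dotted line is 2-fold. Pcna and Slbp lie nearest 0 in most panels, and the G2/M points lie furthest right in Schwann-like and pericyte- or smooth muscle-like cells.

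Mesenchymal-like cells, a class drawn from fibroblast, tenocyte and chondrocyte marker lists, gave the largest number of G2/M positive cells in the injured library. They held 309 of its 868 G2/M positive cells (35.6%, 32.4 to 38.9%) and were 29.4% of its cells at depth. In the uninjured library they held 21 of 160 (13.1%, 8.31 to 19.4%) and were 29.0% of cells. G2/M positive cells were 13.9% of 2218 injured cells (12.5 to 15.4%) and 1.75% of 1202 uninjured cells (1.08 to 2.66%), and G1/S positive cells 17.1% (15.5 to 18.7%) and 6.24% (4.94 to 7.76%). Without thinning the G2/M shares were 43.2% in injured and 3.94% in uninjured cells, with median depths of 45320 and 19328 UMIs. The 21 G2/M positive uninjured cells had a median doublet score of 0.0806, against 0.0256 in the others. Their median depth was 39893 against 20489 UMIs, and their summed fibroblast markers 21998 against 48187 CPM. In injured cells the median doublet scores were 0.0454 and 0.0318. The part of mixed cells in these shares was not tested.

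The class is made of different clusters in the 2 libraries, and the G2/M share differs between them. Injured cells lay in cluster 5 (Cxcl5, Timp1, Tnc, Sfrp1; scored highest on the chondrocyte list, with none of its markers among the top 10 genes), with 23.9% of 737 cells G2/M positive (20.8 to 27.1%), cluster 8 (C1qtnf3, Cthrc1, Tnn, Aspn; tenocyte markers), with 17.6% of 541 (14.4 to 21.0%), and cluster 4 (Col14a1, Sfrp2, Eln, Igfbp4), with 4.34% of 830 (3.06 to 5.95%). Uninjured cells lay in clusters 12, 14, 16 and 17. Cluster 14 (Mgp, Fmod, Col22a1, Thbs4), also fitted best by the tenocyte markers, had 3.46% of 347 uninjured cells G2/M positive (1.80 to 5.96%), and 17 injured cells. The fibroblast clusters 16 (Gsn, Dcn) and 17 (Apod, Gsn) had 0.820% of 244 and 0.810% of 247 uninjured cells positive. The only cluster of the class with over 50 cells of each library at depth was number 12 (Gsn, Igfbp6, Clec3b, Sema3c), with 1 of 53 injured cells (1.89%, 0.0478 to 10.1%) and 5 of 357 uninjured cells (1.40%, 0.456 to 3.24%) positive. Within cluster 12 no difference was detectable at this number of cells, and elsewhere cluster and library cannot be told apart.

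In injured mesenchymal-like cells 28 of 40 members were more than 2-fold higher, 11 of G1/S and 17 of G2/M, where 6.90% of all genes were. The median log2 folds of the phases were close, 1.22 for G1/S and 1.29 for G2/M, against -0.08 over all genes. Uhrf1 was at 13.3 CPM in injured and 2.62 CPM in uninjured cells, 5.07-fold (4.01 to 6.51), and Dtl at 12.3 and 2.48 CPM, 4.97-fold (3.90 to 6.42). Birc5 was at 56.1 and 11.7 CPM, 4.78-fold (4.28 to 5.36). The 3 intervals overlap, so these G1/S ratios were not distinguishable in size from that of Birc5. Pcna was at 53.5 and 50.9 CPM (1.05, 0.991 to 1.11), and Slbp at 40.3 and 42.8 CPM. The count was 14 of 40 where classes were set cell by cell (5.82% of all genes) and 16 with a pseudocount of 5 CPM (3.18%).

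Vascular endothelial-like cells had positive cells in both libraries. G2/M positive cells were 14.4% of 1074 injured (12.4 to 16.7%) and 4.35% of 1447 uninjured cells (3.36 to 5.54%), and G1/S positive cells 18.8% (16.5 to 21.3%) and 12.3% (10.7 to 14.1%). Without thinning the G2/M shares were 40.2% in injured and 10.8% in uninjured cells. The G1/S difference of 6.51 percentage points was 1.39 when cells were thinned to 10000 UMIs instead. In the uninjured library this class held 63 of 160 G2/M positive cells, 39.4% (31.8 to 47.4%), the most of any class. Injured cells lay mostly in cluster 7 (Plvap, Ctla2a, Magi1, Pcdh17), with 595 injured and 8 uninjured cells, and 21.8% of 565 injured cells there were G2/M positive (18.4 to 25.4%). Uninjured cells lay mostly in cluster 0 (Cd36, Timp4, Aqp1, Fabp4; genes of capillaries), where 4.90% of 102 injured (1.61 to 11.1%) and 5.11% of 1017 uninjured cells (3.84 to 6.65%) were positive. In cluster 9 (Selp, Lrg1, Ackr1; genes of venules) the shares were 5.03% of 318 injured (2.90 to 8.04%) and 1.62% of 185 uninjured cells (0.336 to 4.67%). In cluster 15 (Stmn2, Cldn5) they were 7.14% of 70 and 1.33% of 226.

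In injured vascular endothelial-like cells 15 of 40 members were more than 2-fold higher, 4 of G1/S and 11 of G2/M, where 7.23% of all genes were. Ccnb1 was at 16.4 CPM in injured and 4.15 CPM in uninjured cells, 3.96-fold (3.27 to 4.82), and Ube2c at 77.0 and 22.6 CPM, 3.41-fold (3.14 to 3.71). Tyms was at 70.7 and 31.7 CPM, 2.23-fold (2.08 to 2.41). Mki67 had a ratio near 1, at 44.5 CPM in injured and 39.0 CPM in uninjured cells (1.14, 1.06 to 1.23), and Pcna was lower, at 74.4 and 93.8 CPM (0.793, 0.753 to 0.836). The count of 15 was 3 among cells that had Xist but no Y gene UMI, near the 6.09% of all genes that were higher there. It was 26 among cells that had Y gene but no Xist UMIs, where 9.58% of all genes were. The G2/M shares were 11.3% in injured and 5.99% in uninjured cells with Xist only, and 14.6% and 3.19% in those with Y-linked UMIs only.

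**Figure D4:**
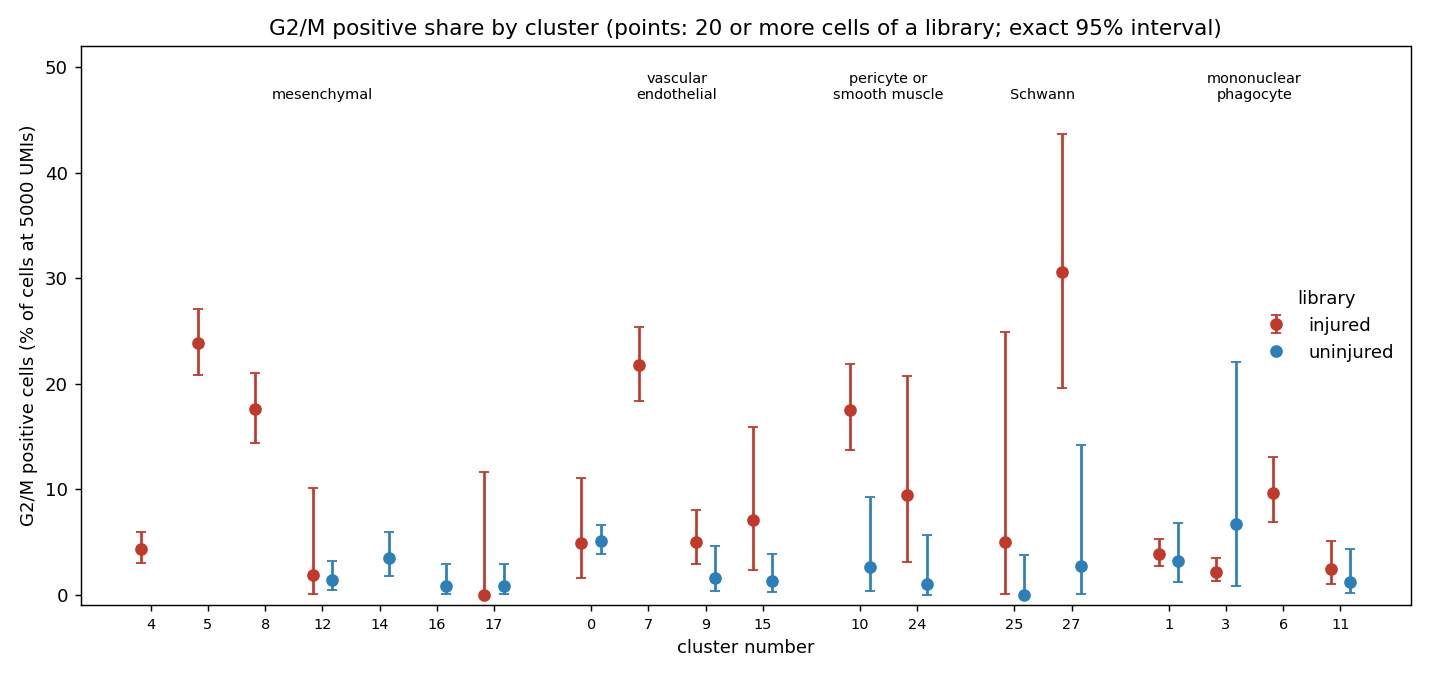
G2/M positive share at 5000 UMIs (y axis, %) with exact 95% intervals in clusters of the 5 compared classes other than lymphatic endothelial-like cells (x axis, by number), injured in red left of uninjured in blue, for 20 or more cells of a library in clusters that have at least 50 of 1 library. The 3 highest injured shares drawn lie in Schwann-like cluster 27 (30.6%), mesenchymal-like cluster 5 (23.9%) and vascular endothelial-like cluster 7 (21.8%), while capillary cluster 0 has 4.90% and 5.11%.

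Mononuclear phagocyte-like cells, the monocytes and macrophages, were the largest class of the injured library (2799 cells) and had the lowest G2/M share of the 6 classes compared there. G2/M positive cells were 4.05% of 2444 injured (3.30 to 4.91%) and 2.61% of 383 uninjured cells (1.26 to 4.75%), both within the interval of the neutrophil-like share of 3.12%. G1/S positive cells were 11.4% (10.2 to 12.7%) and 11.2% (8.25 to 14.8%), a difference of 0.189 percentage points, which was 7.68 (2.10 to 12.9) when cells were thinned to 10000 UMIs and -0.578 (-4.05 to 2.48) where classes were set cell by cell. Without thinning the G2/M shares were 18.3% in injured and 13.1% in uninjured cells, and the G1/S shares 47.6% and 47.8%. With Hmgb2, Pcna, Slbp and Ung left out, 2.50% of injured (1.91 to 3.19%) and 0.261% of uninjured cells (0.00661 to 1.45%) were G2/M positive, against 0.446% of neutrophil-like cells, and 4.17% and 2.61% were G1/S positive. Cluster 6 (Acp5, Spp1, Mmp9, Mmp12), which the osteoclast markers fitted best, had 9.68% of 372 injured cells G2/M positive (6.87 to 13.1%), and 7 uninjured cells. Cluster 1 (Apoe, C1qb, C1qa, Pf4) had 3.90% of 975 injured and 3.21% of 187 uninjured cells positive, and cluster 11 (Ccl8, F13a1, Retnla, Mrc1) 2.49% of 281 and 1.21% of 165. Cluster 3 (Cd74, H2-Aa) had 2.21% of 816 injured cells positive (1.31 to 3.46%) and, the other way, 2 of 30 uninjured cells (6.67%, 0.818 to 22.1%).

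By summed level, most mitotic members of this class were higher in the injured library. Of the 40 members, 18 were more than 2-fold higher, 3 of G1/S and 15 of G2/M, where 5.44% of all genes were, with median log2 folds of 0.68 and 1.61 against -0.07 over all genes. Ube2c was at 26.8 CPM in injured and 2.56 CPM in uninjured cells, 10.4-fold (6.40 to 18.3), and Birc5 at 21.2 and 2.24 CPM, 9.45-fold (5.60 to 17.3). Ccnb1 gave 287 UMIs in injured and 3 in uninjured cells, a ratio of 14.2 (4.79 to 69.0). Of the 4 members also used outside division, Pcna was at 112 CPM in injured and 126 CPM in uninjured cells, Slbp at 58.8 and 58.5 CPM, and Hmgb2 at 224 and 159 CPM. Ung, the least abundant of them, was at 2.94 CPM in injured and 1.12 CPM in uninjured cells (2.62, 1.23 to 6.65). Kif23 was the lone G2/M member below 1, at 13.4 and 17.1 CPM (0.782, 0.635 to 0.971), and it was at 50.7 CPM in neutrophil-like cells. The count of 18 was 3 where cell cycle genes were left in the clustering (4.75% of all genes) and 2 where classes were set cell by cell (4.47%), so it depends on how the class is drawn.

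Other classes were large in 1 library only. Keratinocyte-like cells were found only in the injured library (308 cells), with 39.5% of 294 cells G1/S positive (33.8 to 45.3%) and 27.2% G2/M positive (22.2 to 32.7%). T or NK-like cells had 36.0% of 178 injured and 22.2% of 45 uninjured cells G1/S positive, and 18% (12.6 to 24.4%) and 13.3% (5.05 to 26.8%) G2/M positive. With Hmgb2, Pcna, Slbp and Ung left out, 11.2% of injured (7.00 to 16.8%) and 2.22% of uninjured T or NK-like cells (0.0562 to 11.8%) were G2/M positive. The G1/S shares were then 21.9% in injured and 8.89% in uninjured cells. Satellite- or myoblast-like cells (cluster 19: Cdkn1c, Dag1, Dmd, Chodl, Myog) were nearly all from the uninjured library. Their marker list joins muscle stem cells and myoblasts, which were not told apart here. There 48 of 265 cells were G1/S positive (18.1%, 13.7 to 23.3%) and 30 G2/M positive (11.3%, 7.77 to 15.8%), and of the 16 injured cells 9 and 6 were positive. They held 18.8% of all uninjured G2/M positive cells and were 6.39% of uninjured cells at depth. Dendritic-like cells had 7.11% of 197 injured cells G1/S positive and 3.55% G2/M positive, a G2/M share near the neutrophil-like 3.12%. With Hmgb2, Pcna, Slbp and Ung left out, their G2/M share was 2.03% (0.556 to 5.12%). The neutrophil-like share was then 0.446% (0.0113 to 2.46%), and the intervals overlap. Myofibre-like cells had 0 of 18 uninjured cells positive for either phase, which allows a share of up to 16.7%.

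The make-up of the positive cells by phase differed between the libraries. Of 1576 injured cells positive for either phase, 44.9% were G1/S only (42.4 to 47.4%), 36.0% both and 19.0% G2/M only. Of 517 uninjured cells, 69.1% were G1/S only (64.9 to 73.0%), 19.5% both and 11.4% G2/M only. In lymphatic endothelial-like cells 22.2% of 45 injured and 77.8% of 18 uninjured positive cells were G1/S only. In Schwann-like cells 33.3% of 30 and 90.0% of 10 were, and in pericyte- or smooth muscle-like cells 37.4% of 107 and 83.3% of 18. Vascular endothelial-like cells had 39.7% of 257 and 68.8% of 202, and mesenchymal-like cells 35.2% of 477 and 74.1% of 81. All 5 classes therefore had a lower G1/S-only share in the injured library. Phagocyte-like cells had 69.9% of 329 and 80.0% of 50, the highest injured share of these classes. Satellite- or myoblast-like cells of the uninjured library had 44.4% of 54. A G1/S-only call is not by itself a cell in S phase: with Hmgb2, Pcna, Slbp and Ung left out, the G1/S shares over all cells were 10.5% in injured and 5.04% in uninjured cells.

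**Figure D5:**
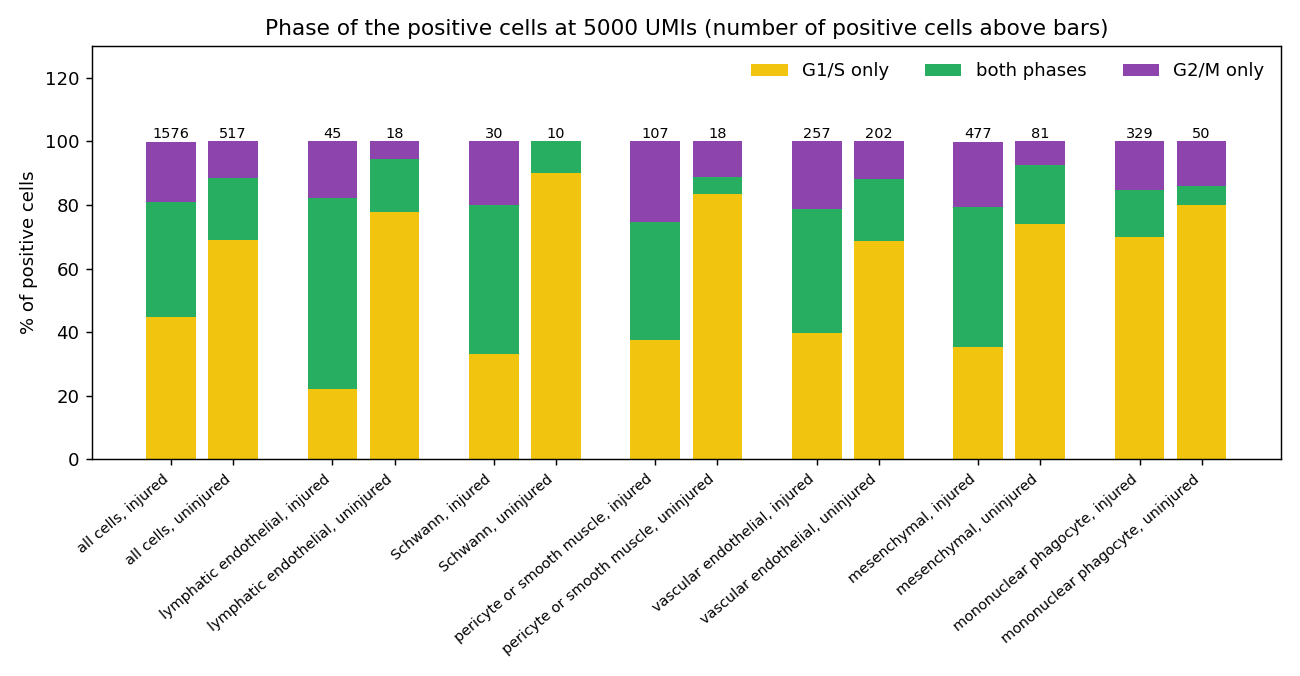
Make-up of the cells positive for either phase (y axis, % of positive cells) as G1/S only (yellow), both phases (green) and G2/M only (purple), injured left of uninjured for all cells and 6 classes, with the number of positive cells above each bar. G1/S-only cells are more than 50% of every uninjured bar (68.8 to 90.0%) and less than 50% of every injured bar but that of mononuclear phagocyte-like cells (69.9%).

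Summed levels, which need no call per cell, gave a higher ratio of G2/M to G1/S UMIs in the injured library in all cells and in each of the 6 classes. It was 1.90 in injured and 1.42 in uninjured cells of all classes together, and 2.55 and 1.15 in lymphatic endothelial-like cells, 2.35 and 0.524 in pericyte- or smooth muscle-like cells, and 1.68 and 0.511 in Schwann-like cells. It was 1.87 and 1.25 in mesenchymal-like, 2.0 and 1.5 in vascular endothelial-like and 1.30 and 0.824 in phagocyte-like cells. Neutrophil-like cells had 6.71, with Hmgb2 giving 828 of their 915 CPM of G2/M members. Positive cells were deeper than the rest before thinning, with medians of 34698 against 19955 UMIs in the injured and 21109 against 17026 UMIs in the uninjured library, and the part of cell size or RNA content in the calls was not tested.

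Within their phase, members varied together to different degrees. Pearson r of log2(CPM + 1) with the summed level of the phase was taken over the 17 class-library sums, which share 2 libraries and clustering. The summed level includes the member itself, so r is partly fixed by construction. For G1/S members r was 0.978 for Mcm2, 0.974 for Mcm5 and 0.969 for Dtl. It was lowest for Slbp (0.629) and Pcna (0.765). The summed G2/M level holds a large part of Hmgb2 (295 of 887 CPM over all injured cells). With the summed G2/M level r was 0.921 for Kif23 and 0.894 for Mki67 and lowest for Cenpe (0.704). Cenpe followed the summed G1/S level more closely (0.905), as did Aurkb (0.911 against 0.841) and Cenpf (0.881 against 0.792). Others followed the G1/S level less closely than that of their own phase: Mki67 (0.846), Kif23 (0.590) and Hmgb2 (0.560 against 0.886). These values therefore do not part the G2/M members cleanly from the G1/S members. Outside the lists, the genes most like the summed G1/S level were Dnmt1 (0.956), Fignl1 (0.954), Ube2t (0.952), Bard1 (0.952), Atad2 (0.948), Hist1h3e (0.945), Hist1h3f (0.942) and Mms22l (0.941). Dnmt1, the maintenance DNA methyltransferase, was highest in injured Schwann-like cells, at 97.1 CPM, and lowest in neutrophil-like cells, at 3.68 CPM. Those most like the summed G2/M level were Ckap2l (0.951), Trim59 (0.943), Neil3 (0.940), Shcbp1 (0.928), Nxt1 (0.906), Brip1 (0.903), Pclaf (0.903) and Hist1h1b (0.896). Pclaf, a partner of the polymerase clamp, reached 254 CPM in injured lymphatic endothelial-like cells.

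Genes that gate entry into the cycle were not all in 1 direction. Of 8 CDK inhibitors, 2 were more than 2-fold higher over all cells and 1 lower, where 6.83% and 7.85% of all genes were. Cdkn2b (p15) was at 12.6 CPM in injured and 2.85 CPM in uninjured cells, 4.41-fold (3.88 to 5.04). Cdkn3, a phosphatase of Cdk1 and Cdk2, was at 12.2 and 5.30 CPM, 2.31-fold (2.09 to 2.55). Cdkn1c (p57) was at 81.0 CPM in injured and 207 CPM in uninjured cells, a ratio of 0.391 (0.383 to 0.399). Cdkn1a (p21) was at 136 and 270.0 CPM, a ratio of 0.505 (0.496 to 0.513). The other 4 had ratios of 0.821 (Cdkn2d, 34.9 CPM in injured and 42.5 CPM in uninjured cells), 0.939 (Cdkn1b, 67.2 and 71.6 CPM), 1.03 (Cdkn2c, 21.2 and 20.6 CPM) and 1.71 (Cdkn2a, 3.85 and 2.26 CPM). In lymphatic endothelial-like cells Cdkn1a was at 36.7 CPM in injured and 252 CPM in uninjured cells (0.146, 0.118 to 0.179). In Schwann-like cells Cdkn1a was at 245 and 1018 CPM (0.240, 0.216 to 0.267). The Cdkn1a ratio was 0.255 (0.246 to 0.265) in vascular endothelial-like, 0.281 (0.267 to 0.296) in mesenchymal-like and 0.901 (0.806 to 1.01) in pericyte- or smooth muscle-like cells. In phagocyte-like cells Cdkn1a was instead higher, at 347 CPM in injured and 263 CPM in uninjured cells (1.32, 1.25 to 1.39).

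D cyclins, which pass growth signals to Cdk4 and Cdk6, differed by class. None of 9 genes of this list was more than 2-fold higher over all cells and 3 were lower, against the same shares of all genes. Ccnd1 was at 94.0 CPM in injured and 203 CPM in uninjured cells of all classes together (0.464, 0.455 to 0.473), and Ccnd2 at 96.7 and 214 CPM (0.452, 0.443 to 0.461). In Schwann-like cells Ccnd1 was instead at 831 CPM in injured and 103 CPM in uninjured cells, 8.04-fold (6.81 to 9.53), and in pericyte- or smooth muscle-like cells at 95.9 and 35.8 CPM. Cdk4 was at 127 and 66.8 CPM over all cells, 1.90-fold (1.85 to 1.96), with a lowest class ratio of 1.66 (phagocyte-like) and 244 CPM in injured and 66.1 CPM in uninjured lymphatic endothelial-like cells. Cdk6 was at 48.3 and 31.2 CPM over all cells.

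Lists of further division genes were read beside the members. Of 35 further replication genes, 6 were more than 2-fold higher over all cells and 1 lower, with a median log2 fold of 0.63, where 6.83% of all genes were higher and 7.85% lower. The lists of kinetochore and of condensin genes below were near those shares in their counts past 2-fold over all cells. Their median log2 folds were 0.73 and 0.29, against -0.04 over all genes tested. All 17 kinetochore genes and 8 of 13 condensin genes had a ratio above 1. Tk1, thymidine kinase, was at 21.8 CPM in injured and 7.63 CPM in uninjured cells and Dut, which clears dUTP, at 87.5 and 33.0 CPM, while Pola2, a primase partner, was lower at 10.5 and 22.9 CPM and Pold1 at 5.87 and 7.16 CPM. In lymphatic endothelial-like cells 26 of these 35 were more than 2-fold higher, where 13.1% of all genes were. Of 17 kinetochore and checkpoint genes, 1 was higher over all cells, Cenpa, the centromeric histone, at 61.0 and 23.1 CPM, followed by Spc24 at 20.7 and 10.1 CPM, with Bub3 and Zwint lowest at ratios of 1.06 and 1.19. Of 16 cytokinesis and motor genes 2 were higher, Kif2c at 7.63 and 2.34 CPM and Cdca8 at 29.3 and 11.9 CPM, and Cit and Kif18b had the lowest ratios, 0.991 and 1.06. All 16 were higher in Schwann-like and in pericyte- or smooth muscle-like cells, where 15.6% and 11.1% of all genes were. Of 13 condensin and pairing genes only Ncapg2 was higher (27.2 and 12.6 CPM), then Ncapg (8.09 and 3.99 CPM), and the cohesins Rad21 (0.690) and Smc3 (0.796) had the lowest ratios. Of 12 checkpoint genes Brca1 (8.03 and 3.06 CPM) and Cdc25c (3.73 and 1.24 CPM) were higher and Wee1, which holds Cdk1 back, was lower (12.9 and 29.6 CPM), with Chek2 at 0.507. Of 19 E2F, RB and DREAM regulators 0 were past 2-fold in either direction, the highest being Mybl2 (4.65 CPM in injured and 2.19 CPM in uninjured cells) and E2f8 (5.96 and 2.85 CPM), and the lowest E2f6 (0.664) and Tfdp2 (0.687).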

How the data were processed

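The 2 droplet libraries (3' UMI counting) are 1 injured and 1 uninjured. For each gene and barcode the deposited files give whole, unnormalised UMI counts, per the file headers. The authors made these counts with Cell Ranger 5.0.1 on mm10, per the submitters' processing notes. Neither the annotation release nor the rule for calling cells is given in the sources used here. Members, marker lists and pathway lists were chosen with earlier results of these data known.

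Kept cells had at least 500 genes and no more than 10% of UMIs from mitochondrial genes. Scrublet (scanpy 1.11.5) scores above 0.2 removed 215 of 9366 injured (2.30%) and 60 of 4760 uninjured cells (1.26%); this limit was set after scores were seen. Both libraries were clustered together (2000 variable genes, 30 components, 15 neighbours, Leiden of igraph at resolution 0.8) without 314 cell cycle genes, and 36 clusters were named from 22 marker lists. Of these, 6 stayed unnamed and enter all-cell values only. Free RNA was neither removed nor measured. Neutrophil-, mast- and myofibre-like cells, which were held to be non-dividing, are given for comparison. Cells were thinned to 5000 UMIs, and 3 or more members made a cell positive. Summed counts per class gave CPM and folds on CPM + 1, for genes with a mean of at least 1 CPM. Shares have exact binomial, sums exact Poisson and ratios exact conditional intervals; with 1 library per group no test was made. Thinning and folds were tested on simulated data. A class needed 50 cells in both libraries to be compared, which left 6. All 40 members, all CDK inhibitors and the 2 highest and 2 lowest all-cell folds of each other list are named; like genes are the 8 with the highest r per phase at a mean of 5 CPM or more.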

Additional observations from a re-analysis of the deposited data

How the results depend on the processing

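Without a test, direction and size were compared. The phagocyte-like G1/S difference, whose interval includes 0, lay between -0.578 and 7.68. No other difference changed sign. Main differences (injured minus uninjured, percentage points, G1/S then G2/M) were 5.89 and 7.66 for all cells, 10.8 and 12.2 mesenchymal-like, 0.189 and 1.44 phagocyte-like, 6.51 and 10.1 vascular, 25.4 and 40.1 lymphatic, 11.5 and 14.9 pericyte and 21.7 and 23.6 Schwann-like. Alternatives for the last 3 classes were chosen after seeing the data. At 2000 UMIs they were 2.43 and 4.83 (all), 4.30 and 9.29 (mesenchymal) and 2.70 and 6.25 (vascular). At 10000 UMIs the G2/M values were 12.1 (all), 15.6 (mesenchymal), 4.55 (phagocyte), 12.8 (vascular), 26.1 (pericyte) and 40.0 (Schwann), and the G1/S values 7.68 (phagocyte), 1.39 (vascular) and 17.6 (pericyte). Without thinning they were 7.61 and 19.8 (all), 34.4 and 39.2 (mesenchymal), 16.6 and 29.4 (vascular) and 27.1 and 35.4 (pericyte), with G2/M alone 5.17 (phagocyte) and 54.4 (lymphatic). With 2 members needed, G2/M was 13.6 (all), 15.4 (mesenchymal), 3.18 (phagocyte), 17.4 (vascular) and 24.6 (pericyte). With 5 needed they were 3.86 and 5.23 (all), 6.06 and 8.52 (mesenchymal) and 3.43 and 6.20 (vascular). Without Hmgb2, Pcna, Slbp and Ung, G2/M was 6.48 (all). In cells with Xist only it was 6.30 (all) and 5.35 (vascular), and mesenchymal values were 6.55 and 9.45, or 13.8 and 14.5 in cells with Y-linked UMIs only. With classes set by cell it was 25.0 (lymphatic), and Schwann values were 5.60 and 10.1.

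Counts of members more than 2-fold higher were, with a pseudocount of 5 CPM, 6 (all), 16 (mesenchymal), 8 (phagocyte) and 9 (vascular). In Xist cells they were 8 (all), 3 (vascular) and 22 (lymphatic), and in Y-linked cells 26 (vascular). By cell they were 14 (mesenchymal) and 2 (phagocyte), and with cell cycle genes left in the clustering 3 (phagocyte). Without the low-value filter the background was 4.17% (all), 4.33% (mesenchymal), 3.58% (phagocyte) and 4.64% (vascular). The cause was not tested. No paired analysis was possible because each group has 1 library. With 1 library per group, library and injury cannot be told apart, and small classes are limited by their number of cells.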

Other observations

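Cells that stayed unnamed also held positive cells. Cluster 13 (Rgs5, Fabp4, Abcc9, Cd36), with genes of pericytes and of capillaries together and median depths of 47485 UMIs in 138 injured and 29786 UMIs in 249 uninjured cells, had 22.8% of 136 injured (16 to 30.8%) and 6.03% of 232 uninjured cells (3.34 to 9.92%) G2/M positive. Cluster 26 (Retnla, Cd74, H2-Ab1, H2-Eb1) had 8 of 38 injured (21.1%, 9.55 to 37.3%) and 6 of 97 uninjured cells (6.19%, 2.30 to 13%) positive. Cluster 33 (Robo2, Rspo3, Enpp2, Dcc), of the injured library alone, had 6 of 25 cells G1/S positive (24%) and 0 G2/M positive, which allows up to 12%, or 3 cells of the total. Mast-like cells, held to be non-dividing as neutrophil-like cells are, had 3 of 20 injured cells G2/M positive (15%, 3.21 to 37.9%) and 0 of 5 uninjured cells. With Hmgb2, Pcna, Slbp and Ung left out, 3 of the 20 injured cells were still G2/M positive and 2 were G1/S positive (10.0%, 1.23 to 31.7%). The cause was not tested.

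Among injured mesenchymal-like cells, G2/M positive cells had Dcn at 2040.4 CPM against 3732 CPM in the others and Col1a1 at 14202 against 20973 CPM, and in injured phagocyte-like cells C1qa was at 1953 CPM in positive and 2741 CPM in other cells. These levels are parts of a fixed total and were not tested. Of the cells removed as doublets, 33 of 195 injured at depth (16.9%) and 1 of 55 uninjured (1.82%) were G2/M positive.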
